A study of Mus musculus with 36 samples.

Results

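In the mouse embryo, the third metacarpal, the long bone of the middle finger ray, had 4476 regions of open chromatin that were called in its peak list and in none of the 11 other lists of the same series. These private regions were chosen by merging the peaks of 12 lists wherever they shared at least 1 bp, which gave 65543 regions, and keeping those called in the metacarpal digit III list alone. They made up 6.83% of all merged regions, 8.94% of the 50089 regions called in that list and 40.2% of the 11127 regions private to any single list. Presence and absence of a called peak chose the members, so their number, width and significance are given as descriptions with no test.

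The data were ATAC-seq peaks, which mark DNA that a transposase could reach, from autopod (hand and foot) chondrocytes of FVB/NJ embryos at stage E15.5. The 12 groups were metacarpal digit III, set against metacarpal digits I and V, metatarsal digits I, III and V, hand phalanges of digits I, III and V, and foot phalanges of digits I, III and V. All were of the FVB/NJ genotype, and the labels name no treatment. Each group had 3 libraries, and each library joined elements of both body sides from 3 to 5 littermates, 6 to 10 limbs in all. The peaks were called on the pooled libraries of a group, so each group has 1 list, no spread between animals can be given, and 1 list against 11 could not go below a one-sided exact permutation p of 0.0833. The labels call the cells chondrocytes and describe dissected elements without a sort, and such lists cannot tell fewer cells of a type from fewer open copies per cell. Of the 19 listed genes of resting and proliferating chondrocytes, 19 had a region called in all 12 lists. So had 14 of 14 genes of perichondrium and osteoblasts and 13 of 14 endothelial genes. It was so for 5 of 14 muscle genes, of which 13 had any region, and 5 of 13 blood genes, of which 10 had one. Neuronal adhesion and synapse genes gave 25 of 28 and limb identity genes 5 of 13. Among all protein-coding genes with a region the share was 83.4%. These shares were not read as a measure of the cell types present.

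Digit cartilage grows by a fixed sequence. Resting cells feed columns of proliferating chondrocytes under SOX9, SOX5 and SOX6, which then stop dividing and enlarge under RUNX2, MEF2C and FOXA factors before bone replaces them. Distal enhancers that differ between elements are thought to tune this sequence, while most gene starts are open in many tissues. CpG-rich starts in particular tend to be open everywhere, and starts poor in CpG tend to be tissue restricted.

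The members that lay at gene starts are shown first because they are the ones whose sequence could be read. Of the 4476 members, 44 had their summit, the base of highest coverage, inside the 300-base window of a start in the RefSeq table (build GRCm38.p6), and these 44 covered 45 windows. Only the 250 bases before the start are given. Capitals mark 2 short motifs searched on both strands, the AP-1 letters TGAGTCA and the RUNX letters TGTGGT, or the reverse complement of either. None of the marked matches overlapped another. Tm4sf1 (chr3:57301989-57302238, minus strand) and Klhl4 (chrX:114474083-114474332, plus strand) carried the most significant members at protein-coding starts. Spp1 (chr5:104434861-104435110, plus strand) was the one gene of the gene lists with a member's summit in its window. Spata6 (chr4:111777347-111777596, plus strand) and Otub2 (chr12:103376644-103376893, plus strand) held both motifs. Hoxd13 (chr2:74667975-74668224, plus strand), a landmark gene of the distal limb whose start was open in all 12 lists, is given for contrast.
Tm4sf1: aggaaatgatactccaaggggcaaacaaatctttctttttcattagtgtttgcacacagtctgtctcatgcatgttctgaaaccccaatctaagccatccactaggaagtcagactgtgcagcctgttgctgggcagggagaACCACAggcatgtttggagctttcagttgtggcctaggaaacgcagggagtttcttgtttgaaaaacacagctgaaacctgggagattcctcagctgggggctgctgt
Klhl4: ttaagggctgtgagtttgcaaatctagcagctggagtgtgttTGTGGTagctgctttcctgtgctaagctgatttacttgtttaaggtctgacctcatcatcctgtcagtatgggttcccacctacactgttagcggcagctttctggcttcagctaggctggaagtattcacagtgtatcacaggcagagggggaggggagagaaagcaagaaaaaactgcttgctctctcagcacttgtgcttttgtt
Spp1: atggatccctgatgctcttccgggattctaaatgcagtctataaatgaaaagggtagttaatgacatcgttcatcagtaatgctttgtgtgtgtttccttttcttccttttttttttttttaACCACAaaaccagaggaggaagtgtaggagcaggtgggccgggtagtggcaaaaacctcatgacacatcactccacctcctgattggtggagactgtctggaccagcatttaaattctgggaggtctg
Spata6: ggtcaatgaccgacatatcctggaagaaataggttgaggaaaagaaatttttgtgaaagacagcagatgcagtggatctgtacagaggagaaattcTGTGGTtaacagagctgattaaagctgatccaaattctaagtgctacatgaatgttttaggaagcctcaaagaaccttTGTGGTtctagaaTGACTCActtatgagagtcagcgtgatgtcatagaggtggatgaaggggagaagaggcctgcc
Otub2: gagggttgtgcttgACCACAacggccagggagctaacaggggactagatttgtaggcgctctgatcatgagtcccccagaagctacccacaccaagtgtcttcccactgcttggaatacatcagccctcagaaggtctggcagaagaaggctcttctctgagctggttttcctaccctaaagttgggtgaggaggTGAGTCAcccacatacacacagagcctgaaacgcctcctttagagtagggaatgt
Hoxd13: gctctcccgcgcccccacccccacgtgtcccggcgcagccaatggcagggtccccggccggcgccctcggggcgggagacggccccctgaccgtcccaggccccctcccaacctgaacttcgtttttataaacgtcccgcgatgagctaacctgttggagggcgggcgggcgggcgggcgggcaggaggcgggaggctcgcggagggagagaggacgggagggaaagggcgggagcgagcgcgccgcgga
The contrast between them is in the CG pairs. Tm4sf1 and Klhl4 had 1 CG each in 250 bases, Spp1 had 3, Spata6 had 2 and Otub2 had 3, whereas Hoxd13 had 31. The GC content was 48.0% for Tm4sf1, 43.6% for Spp1 and 74.4% for Hoxd13.

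The metacarpal digit III list held more private regions than any other list as deposited. It had 4476, against 1251 for metatarsal digit I, 1185 for foot phalanges digit III, 794 for foot phalanges digit V, 639 for hand phalanges digit III, 633 for foot phalanges digit I, 531 for metatarsal digit III, 478 for hand phalanges digit I, 406 for metacarpal digit V, 310 for hand phalanges digit V, 275 for metacarpal digit I and 149 for metatarsal digit V. The metacarpal digit III count was 3.58 times that of the next list. As a share of the regions each list called, 8.94% (Wilson 95% interval 8.69 to 9.19%) were private in metacarpal digit III, against 0.431 to 2.83% in the others. Intervals here and below cover counting error alone.

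The lead was kept under some ways of ending the lists and lost under others. The metacarpal digit III list was the longest, with 53276 peaks against 36194 to 47375. When each list was reduced to its 36194 most significant peaks, metacarpal digit III had 892 private regions, against 932 for metacarpal digit I, 909 for foot phalanges digit V, 902 for foot phalanges digit I and 881 for metacarpal digit V. It was then in place 4 of the 12 lists by count, and 415 of the 892 were members as first defined. With a common minimum of 49.6 on −log10 p the count was 3413 for metacarpal digit III, of which 1482 were members as first defined. The next list, metatarsal digit I, had 1634, and the lowest, metacarpal digit V, had 16. The lists stayed unequal in length under this minimum, with 43322 peaks in metacarpal digit III and 36194 in metacarpal digit I. The part of this in the lead was not tested. With a common minimum of 7.30-fold, an alternative chosen after seeing the data, it was 1677 for metacarpal digit III, of which 313 were members as first defined, against 2013 for metacarpal digit I.

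**Figure D1:**
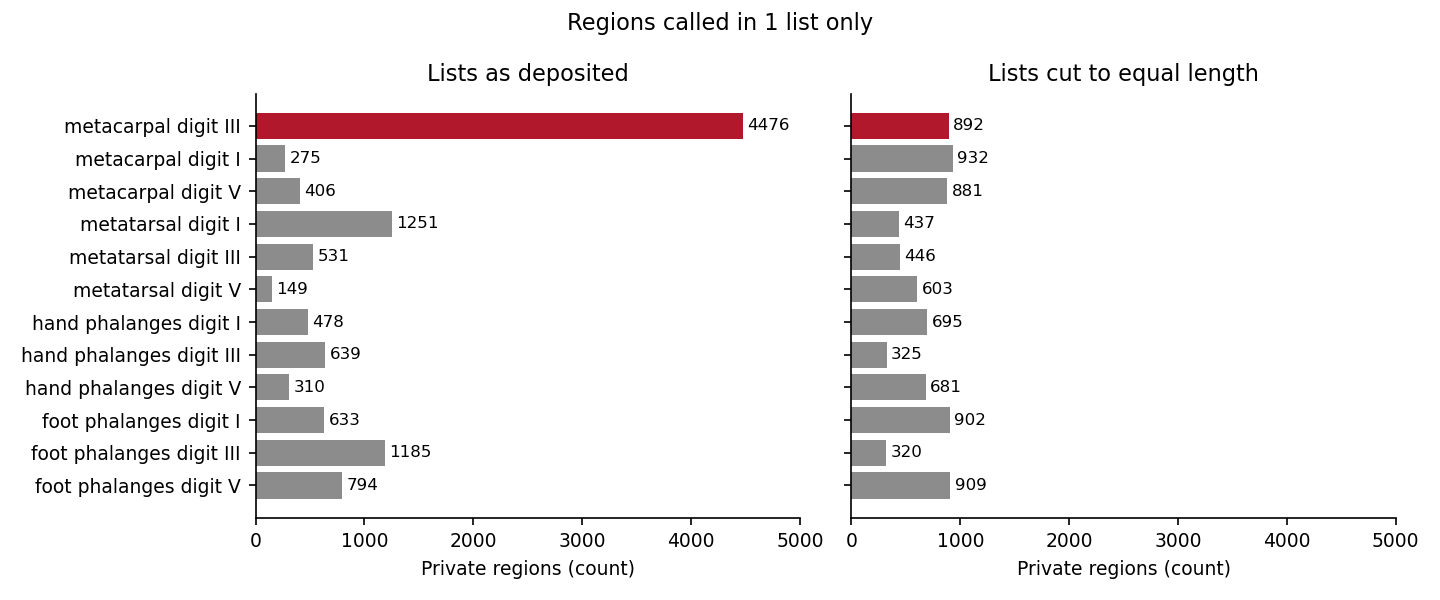
Bars give the number of regions called in 1 list only, for metacarpal digit III (red, top) and the 11 other lists (grey), with the lists as deposited on the left and each reduced to its 36194 most significant peaks on the right. The red bar is 4476 on the left, 3.58 times the next, and 892 on the right, where metacarpal digit I has 932.

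Properties of the list are given beside the count. Foot phalanges digit V had 794 private regions at a fold minimum of 4.97, and metacarpal digit V had 406 at 4.99. These 2 lists were also shorter, with 39937 and 38250 peaks against 53276 in metacarpal digit III. Their background coverage, derived as below, was 13.7 and 10.4, so they are no matched comparison. The lowest fold enrichment kept was 4.91 in metacarpal digit III, the lowest of the 12 lists, against 4.97 to 7.30 in the others. Fold enrichment is the coverage at the summit relative to background, and in each list 100% of values under 25 were whole multiples of a fixed step, within 0.1 of a step. If fold is (coverage + 1) divided by (background + 1), as MACS computes it, that step gives the background coverage, which was 17.7 in metacarpal digit III, second of 12, against 10.35 to 19.6 in the others. Peak names were numbered up to 240970 in metacarpal digit III, so at most 22.1% of the numbered peaks remain in the list, against at most 10.99 to 21.2% in the others. Of the members, 93.0% had a fold enrichment under the lowest value kept for metacarpal digit I and 5.67% one under the lowest kept for metacarpal digit V. The part of these properties in the number of members was not tested. The lists hold no value where no peak was called, so no fold change of a member between elements can be given.

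**Figure D2:**
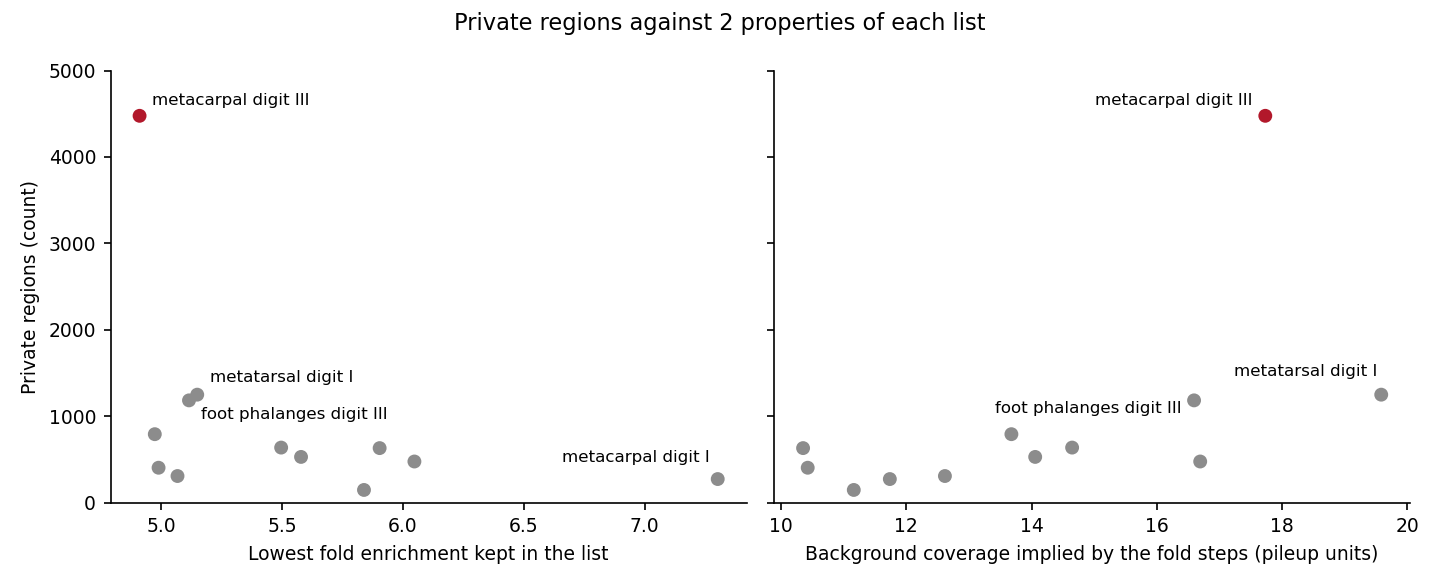
Each point is 1 list, with its private regions (count) against the lowest fold enrichment it keeps (left) and the background coverage implied by the steps between its fold values (right). Metacarpal digit III (red) has the lowest fold minimum, 4.91, and the second highest coverage, 17.7, while metatarsal digit I has the highest coverage, 19.6, and 1251 private regions.

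Members were narrow, weak peaks. Their median width was 1048 bp (quartiles 767 and 1433, range 231 to 6330 bp), against medians of 909 to 1391.5 bp for the private regions of the other lists. Each member was 1 peak, and together they covered 5.28 Mb. All peaks of the metacarpal digit III list had a median width of 1758 bp. Within deciles 5 to 10 of the list by significance, median widths were 999 to 1235 bp for members and 1206.5 to 1714 bp for shared peaks. Their median fold enrichment was 5.55 and the highest 12.1, against a median of 10.5 for the shared peaks of the list. The median summit coverage was 103, against a minimum of 91 in the whole list.

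Each file was sorted from the highest to the lowest −log10 p, so the line position is a rank of significance. The members had a median position of 87.6% of the list, against 91.3 to 93.3% for the private peaks of the other lists. The first member stood at line 21483, 40.3% of the way down, against 0.135 to 39.1% for the first private peak of the others, and 25 members (0.559%) lay in the first 50% of lines. By deciles of the list, members made up 0% of peaks in each of the first 4, then 0.469%, 2.14%, 7.34%, 15.4%, 24.2% and 34.4%. In the last decile the private share of the other lists was 2.75 to 15.48%. The last 25% of the list held 80.5% of the members, against 88.9 to 96.6% of the private peaks of the others, so members were less concentrated at the end of their list although the first of them came later.

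**Figure D3:**
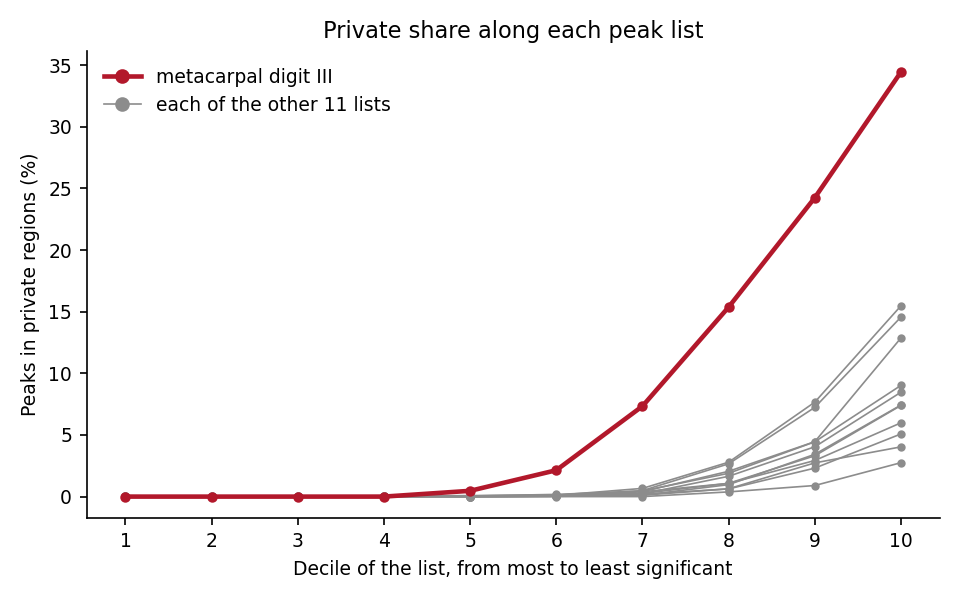
Share of peaks in private regions (%) in each decile of a list, from the most to the least significant peaks, for metacarpal digit III (red) and each of the other 11 lists (grey). The red line is 0 in the first 4 deciles and reaches 34.4% in the last, where the grey lines end at 2.75 to 15.48%.

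The 10 most significant members lay 7.67 to 337 kb from the nearest end of a coding gene. A member 150 kb from Ano5, a gene of the anoctamin family mutated in a human bone dysplasia, led with a −log10 p of 162, 12.1-fold enrichment and a summit coverage of 226 (chr7:51359880-51360713). It was followed by members near Ywhaq (153 on the −log10 p scale), which encodes a 14-3-3 adaptor, and Onecut1 (148), a transcription factor best known from liver. A member inside Pcdh9 (139), a protocadherin, came next. The fifth lay inside Ddr2 (136), a collagen receptor kinase needed for normal growth plate proliferation in mice. The next 5 were nearest to Atp1b1, Mmut and Mamld1 (132 each) and to Cr2 and Dppa2 (128 each). All 10 stood in decile 5 of the list and had no peak of another list within 2 kb, the closest being 2.49 kb away at Ddr2 and the farthest 169 kb away at Dppa2.

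At the weak end, the last member was also the last line of the file, a 310-bp peak inside Aff3 with 4.91-fold enrichment. The 4 before it were nearest to Gsta3, 4931408C20Rik, Dst and Prss39, each with a −log10 p of 34.8. The 5 widest members were nearest to Gm3264 (6330 bp), Naip1 (6029 bp), Asap2 (5273 bp), Slc6a12 (5131 bp) and Gm15501 (5000 bp). Naip1 belongs to a family of near-identical neighbouring copies, where read placement is uncertain.

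Members were distal. Of the 4476, 114 (2.55%, 2.12 to 3.05%) were centred at a gene end, meaning 1 kb or less from where a coding gene starts or stops, against 3.13% (2.74 to 3.57%) of the 6651 regions private to another list and 22.1% of the shared regions of metacarpal digit III. Among single lists the share was 1.34 to 5.45%, so metacarpal digit III lay inside that range. The median distance to a gene end was 38.6 kb for members, against 22.4 to 51.5 kb for the private regions of the other lists and 14.9 kb for shared regions. In all, 49.4% (48.0 to 50.9%) of members lay inside a protein-coding gene, against 48.0% (46.8 to 49.2%) of other private regions and 58.5% of shared ones. More than 100 kb separated 26.2% of members from a gene end, against 25.9% of other private regions.

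Shared peaks also became more distal down the list, from 65.1% at a gene end in decile 1 to 5.15% in decile 10. Members were therefore set against shared peaks of the same decile. The distance of a shared peak ran from the centre of its merged region, which peaks of other lists can widen. A member's region is its own peak, so the 2 sets were not measured alike. The part of this in the differences below was not tested. In decile 10, 1.96% (1.42 to 2.70%) of members were at a gene end, against 5.15% (4.47 to 5.94%) of shared peaks. The median distance there was 36.1 kb for members and 26.6 kb for shared peaks, and the median peak width was 999 bp for members and 1206.5 bp for shared peaks. Decile 7 gave 4.35% (2.73 to 6.85%) for members and 5.65% (5.04 to 6.33%) for shared peaks, whose intervals overlap. Decile 8 gave 3.05% for members and 6.01% for shared peaks, and decile 9 gave 2.48% and 5.28%.

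By distance to the peaks of other lists, few members sat at the limit of the rule. The rule also turns on whether a peak was called, and by significance members lay near the end of their list. Their median line position was 87.6% of the list, and their median summit coverage was 103, against a minimum of 91 in the list. At equal list length 415 of the 4476 stayed members. A peak of another list lay within 1 kb of 329 members (7.35%), against 4.52 to 15.1% for the private regions of the other lists, and within 100 bp of 6 members. The smallest gap was 19 bp, at a member inside St6galnac3. The median gap was 9.16 kb, 2117 members had no peak of another list within 10 kb, and 161 had none within 100 kb. Just outside the rule stood 2799 regions that metacarpal digit III shared with exactly 1 other list, where the 2 lists overlapped by 79 bp at least and by 937 bp in the median.

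The list that most often held such a region was that of the matching hind limb element. Of the 2799, 808 (28.9%) were shared with metatarsal digit III, 480 with metacarpal digit V, 395 with metatarsal digit I, 354 with hand phalanges digit III, 259 with foot phalanges digit III and 236 with metacarpal digit I. The 5 remaining lists shared 34 to 91 each. The 808 were 1.93% of the regions called in metatarsal digit III, and the 480 were 1.34% of those called in metacarpal digit V. By the same kind of share, metacarpal digit III, the longest list, was itself the first partner of several lists. These were metacarpal digits I and V, metatarsal digits I and III and hand phalanges digit III. The part of list length in these pairs was not tested. Metatarsal digit III stayed first with a common −log10 p minimum (631) and a common fold minimum (486), whereas at equal list length metacarpal digit V came first with 379 and metatarsal digit III had 226. Of the 2191 regions in exactly 3 lists, 270 joined metacarpal digit III with metacarpal digit V and metatarsal digit III, and 268 joined it with metatarsal digits I and III.

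The members were spread over all chromosomes but not evenly. On the X chromosome, 158 of 1244 regions called in metacarpal digit III were members (12.7%, 10.96 to 14.7%), the highest share of any chromosome. Chromosomes 3 and 1 followed with 11.2% and 10.2%, and chromosome 11 had the lowest share, 5.53% (4.70 to 6.49%, 139 of 2513). The X chromosome held 3.53% of members, against 2.03% of other private regions and 2.29% of all regions, and single other lists ranged from 0.632 to 5.01%.

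The spacing of members varied along the genome, and it was not compared with that of other regions. The median distance from a member to the next was 128 kb, and 1275 (28.5%) had another member within 50 kb. In a gene-free stretch of 72.5 kb on chromosome 6 (chr6:81562184-81634729), 6 of 6 merged regions were members. The nearest peak of any other list lay 181 to 253 kb away from them, and their −log10 p was 37.7 to 103. A stretch of 119 kb at Ank3 (chr10:69913458-70032630) held 6 members among 10 regions, and one of 164 kb in St6galnac3 (chr3:153524414-153688508) held 6 among 13.

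Each member was assigned to the nearest protein-coding gene within 1 Mb, which gave a gene to 4460 of them. They fell to 3003 of the 16344 genes with any region, 18.4% of them, and 2112 of these genes had 1 member. Of the assigned members, 87.8% fell to a gene that also had a region called in all 12 lists, close to the 86.4% of other private regions.

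Of the 10 genes named for having the most members, 8 were over 200 kb long. St6galnac3, a sialyltransferase, had 9 members among its 29 regions, Ank3, the ankyrin-G scaffold, 9 of 31, and Tenm4, a teneurin adhesion receptor, 9 of 71. Trabd2b, a protease that cleaves Wnt ligands, had 8 of 35. Reln, the secreted glycoprotein reelin known for layering neurons, had 7 of 13, and Ppargc1a, the coactivator of mitochondrial genes, 7 of 28. Ptprm, a receptor tyrosine phosphatase, had 7 of 33 and Nckap5 7 of 37. Gcfc2, the nearest coding gene to the chromosome 6 stretch at 277 kb or more, had 6 of 9, and Gsdmc, a pore-forming gasdermin, 6 of 21. These last 2 genes, of 48537 and 32769 bp, were tied at 6 members with 10 others. The 332 genes with 3 or more members had a median length of 173 kb, against 23.8 kb for all genes with a region, and a median of 18 regions, against 2.

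The gene lists were read against the background of 18.4% of genes with a member, and the genes differ in length and in number of regions, which moves such shares. For the genes that drive cartilage maturation, 6 of 14 prehypertrophic and hypertrophic genes with a region had a member (42.9%), with 11 members in all. That was 9.82% of the 112 regions of these genes, against 6.83% of all regions. Mef2c, a factor that starts chondrocyte enlargement, had 4 members among 33 regions, none within 100 kb of the gene. Foxa2, which acts later in the same step, had 3 of 24. Runx2, the master factor of hypertrophy and bone, had 1 of 13, inside the gene. Col10a1, the collagen made by hypertrophic cells, had 1 of 3, 33.5 kb from the nearest gene end and inside another gene, Nt5dc1. Ibsp, a mineral-binding sialoprotein, had 1 of 2, 27.6 kb away.

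Spp1, which encodes the mineral-matrix protein osteopontin made by late hypertrophic cells and osteoblasts, was the one listed gene whose promoter window held a member's summit. A member 628 bp wide also lay 0.168 kb from an end of Nrxn3. The Spp1 member was chr5:104434529-104435335, 807 bp wide, with 6.73-fold enrichment, a summit coverage of 125 and a −log10 p of 61.7, at line 37997. The nearest peak of another list was 0.937 kb away, so it was no longer a member with a 1 kb margin. Spp1 had 5 regions, of which 1 was called in all 12 lists and 2 were private to other lists.

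Genes of the earlier cartilage programme had 10 members, against 11 for the prehypertrophic and hypertrophic genes. Among resting and proliferating genes, 6 of 19 had a member (31.6%), with 10 members among 205 regions (4.88%). They took 0.224% (0.122 to 0.412%) of members, against 0.314% of all regions. The prehypertrophic and hypertrophic genes took 0.247% (0.138 to 0.441%), against 0.171% of all regions. Both intervals hold the share of all regions. Sox5 had 3 of 59 and Sox6 3 of 35, the partner factors of SOX9, while Sox9 itself, the factor that defines chondrocytes, had 1 of 31. That member lay 312 kb from the gene and was 406 bp wide. Acan, encoding the main cartilage proteoglycan, had 0 of 9, and Col2a1, the cartilage collagen, 0 of 3. Growth plate signalling genes had a member in 9 of 30 cases, with 11 members among 282 regions (3.901%), including 3 at Lef1, a Wnt effector. Perichondrial and osteoblast genes had one in 3 of 14 (5 members among 97 regions, 5.15%), with 2 each at Ptch1, the Hedgehog receptor, and Thbs2. Joint genes had one in 3 of 16, with 5 members among 189 regions (2.65%), 2 each at Jun, an AP-1 subunit, and Creb5 and 1 at Prg4, the joint lubricant. Gdf5, the marker of the forming joint, had 0 of 2.

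Digit patterning genes had a share per region close to that of all regions. Of the anterior-posterior digit patterning genes, 12 of 25 had a member (48.0%), but these 24 members were 7.29% of their 329 regions, against 6.83% of all regions. Bmp2, a growth factor of the interdigit and growth plate, had 5 of 30, Gli3, the Hedgehog effector that limits digit number, 4 of 38, and Dach1 3 of 18. The list took 0.538% of members, against 0.772% of other private regions. Of 12 limb identity genes 1 had a member, Isl1, with 2, which were 3.28% of the list's 61 regions. Tbx5 and Pitx1, the forelimb and hind limb factors, had 0 of 13 and 0 of 6. None of the 8 regions of 5 posterior HoxA and HoxD genes was a member, and the Wilson upper limit for 0 of 5 genes is 43.4%. Hoxa13 had 0 of 3, Ihh 0 of 1, and no region had Hoxd13 as its assigned gene.

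Genes of other tissues were also reached. Of 28 genes of neuronal adhesion and synapse, 21 (75%) had a member, with 56 members among 511 regions (10.96%), which made 1.26% (0.968 to 1.63%) of members, against 1.06% of other private regions and 0.782% of all regions. Tenm3 had 6 of 56, Robo1, an axon guidance receptor, 5 of 51, and Nrxn3, a presynaptic adhesion molecule, 5 of 25. Tenm3 spans 1297160 bp, Robo1 1019974 bp and Nrxn3 1612235 bp. The lists lower in number are given with members per region, against 6.83% of all regions. Nerve and Schwann cells had 2 of 12 genes with a member (5 members among 51 regions, 9.80%). Tendon and ligament had 4 of 11 (6 among 73, 8.22%). Blood and macrophages had 2 of 10 (5 among 77, 6.49%) and endothelium 5 of 14 (6 among 98, 6.12%). Skeletal muscle had 1 of 13 (1 among 34, 2.94%) and epidermis 1 of 8 (1 among 37, 2.70%). The named genes of these lists were Egr2 and Tnc with 2 each in tendon, Flt1 with 2 in endothelium, and Runx1 with 3 and Ptprc with 2 in blood. Nerve had Mbp with 3 and Egr2 with 2, epidermis Trp63 with 1 and muscle Actn2 with 1. Egr2 is in both the tendon and the nerve list, so its 2 members count in both. The part of other cell types in the members was not tested.

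**Figure D4:**
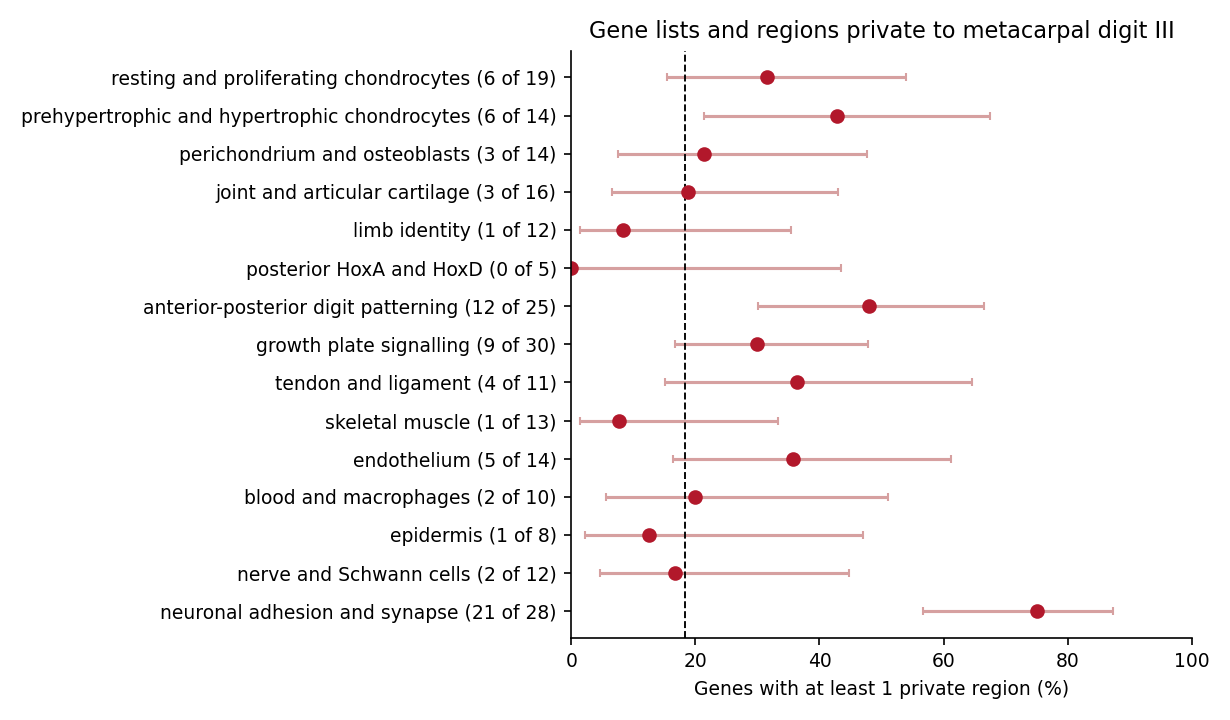
Points give the share of each list's genes with at least 1 member (%), with Wilson 95% intervals, and the dashed line the 18.4% of all genes with a region. The neuronal adhesion list is highest at 21 of 28 genes and posterior HoxA and HoxD lowest at 0 of 5.

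By the kind of gene nearest to the centre, counting every annotated gene, 43.3% of members were nearest to a protein-coding gene, 34.2% to a long noncoding RNA and 16.0% to a pseudogene, against 44.3%, 35.6% and 14.4% of other private regions. Among all regions the shares were 52.0%, 32.4% and 10.7%. A microRNA was nearest for 1.61% of members, 1.35% of other private regions and 1.31% of all regions. Members overlapped 4 microRNA hairpins, Mir429, Mir21c, Mir7212 and Mir6993, of which Mir429 belongs to the miR-200 family known from epithelia. These overlaps were not compared with those of other regions.

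The 45 starts under a member's summit were poor in CpG. The observed over expected CpG ratio in the 250 bases before the start had a median of 0.249 (quartiles 0.146 and 0.347), against 0.303 for the 83 starts under regions private to another list, 0.263 for starts under metacarpal digit III regions in 2 to 6 lists, 0.380 in 7 to 11 lists and 0.792 in all 12. A ratio of at least 0.6 was found in 1 of 45 (2.22%), against 9.64% for other private regions, 79.6% for regions in all 12 lists and 34.0% of the 32851 starts in the table. Of the 24 protein-coding starts among them, 0 reached 0.6, and the median was 0.221, against 0.265 for the 40 of other private regions.

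Both motifs shown in capitals were more frequent in these starts than in starts private to another list. The AP-1 letters were in 11 of 45 (24.4%, 14.2 to 38.7%), against 5 of 83 starts of other private regions (6.02%, 2.60 to 13.3%), 3.06% of starts in all 12 lists and 4.46% of all starts. The RUNX letters were in 16 of 45 (35.6%, 23.2 to 50.2%), against 8 of 83 (9.64%, 4.97 to 17.9%), 8.92% of starts in all 12 lists and 14.0% of all starts. Metacarpal digit III regions in 2 to 6 lists gave 17.3% for AP-1 and 19.1% for RUNX. The SOX letters ACAATG, on both strands, were in 3 of 45 (6.67%), against 8.43% for other private regions and 10.7% of all starts. A pair of these windows, both of 2810047C21Rik1, lay 1 base apart, and counted once they leave 2 of 44 starts with the SOX letters. TATAAA, on the gene strand, was in 5 of 45 (11.1%), against 6.02% and 7.59%. Among starts with a CpG ratio under 0.4, AP-1 was in 11 of 39 (28.2%, 16.5 to 43.8%), against 8.93% of 56 for other private regions. RUNX was in 16 of 39 (41.0%, 27.1 to 56.6%), against 8.93%. Shared metacarpal digit III starts under 0.4 gave AP-1 in 17.6% (2 to 6 lists), 16.6% (7 to 11) and 10.5% (all 12). For RUNX they gave 20.2%, 20.6% and 16.0%. The intervals in 2 to 6 lists, 11.8 to 25.5% for AP-1 and 13.9 to 28.3% for RUNX, overlap those of members.

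Under other ways of ending the lists, 1 motif share left its first interval, that of AP-1 with a common fold minimum. At equal list length, AP-1 was in 3 of 16 starts of metacarpal digit III (18.8%, 6.59 to 43.0%), against 13.3% (7.92 to 21.4%) for other private regions. RUNX was in 4 of 16 (25%, 10.2 to 49.5%), against 10.2% (5.64 to 17.8%). Both pairs of intervals overlap. With a common −log10 p minimum AP-1 was in 14.3% (7.10 to 26.7%) against 8.64% (4.25 to 16.8%). RUNX was then in 32.7% (21.2 to 46.6%) against 11.1% (5.96 to 19.8%). With a common fold minimum AP-1 was in 13.04% against 12.9% and RUNX in 34.8% against 16.5%. Single other lists had 0 to 20 private starts each, too few to rank. A match is only these letters, and the motifs were 4 chosen by hand.

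The starts with both motifs were those of Spata6, Otub2, Gbp2, Mylk, Fam25c, Gm33016 and Gm33728. At Spata6, which encodes a sperm structural protein, the AP-1 letters began 63 bases before the start and the RUNX letters 154 and 76 bases before it. At Otub2, a deubiquitinase, AP-1 began 55 and RUNX 236 bases before the start. At Spp1 the RUNX letters began 128 bases before the start, at Tm4sf1, a tetraspanin-like membrane protein, 108 bases, and at Klhl4 208 bases. Mylk, the myosin light chain kinase of smooth muscle, and Ppargc1a, which also had a member at a start, were near the end of the list with a −log10 p of 37.7 and 38.5.

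**Figure D5:**
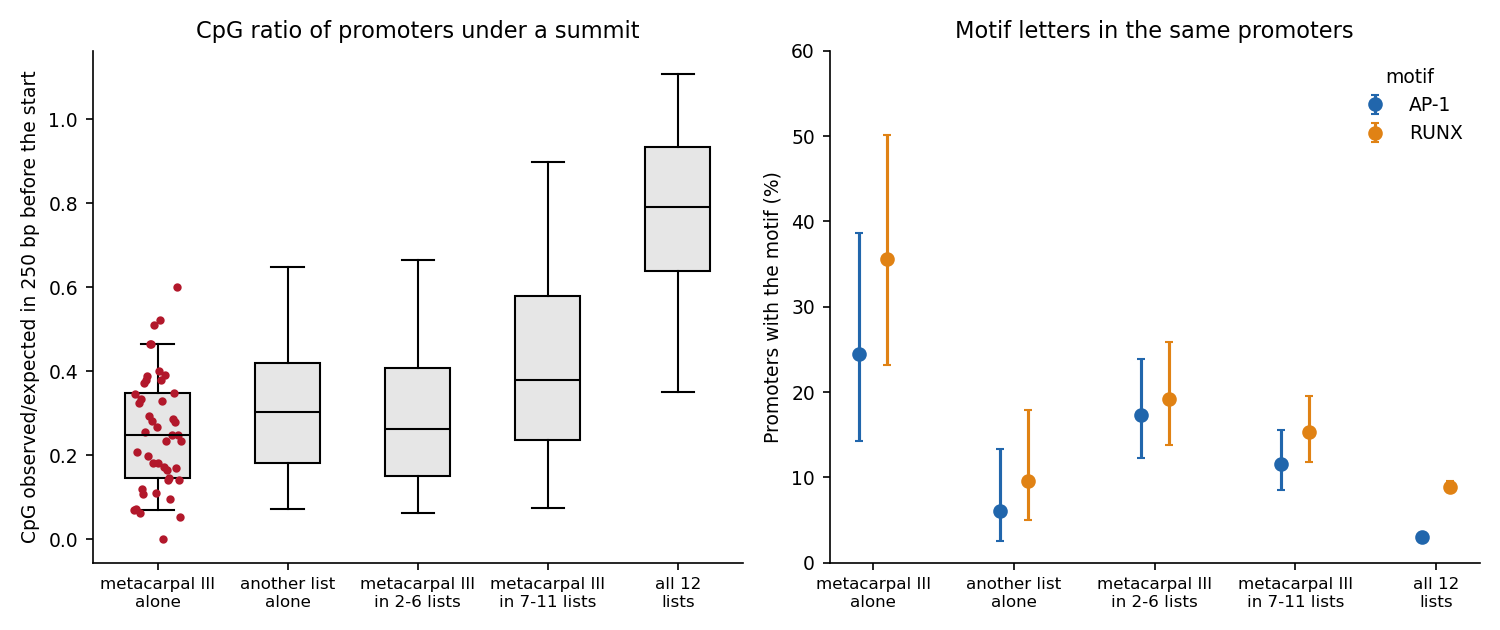
Left, CpG observed over expected ratio in the 250 bases before starts under a summit (boxes, quartiles and median; whiskers, 5th to 95th percentile; red points, single starts of members). Right, share of the same starts (%) with the AP-1 or RUNX letters, with Wilson 95% intervals. Starts private to metacarpal digit III have a median ratio of 0.249, against 0.792 in all 12 lists, and hold the RUNX letters in 35.6%, against 9.64% for starts private to another list.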

How the data were processed

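The members and gene lists were chosen with earlier results of these data known. Libraries were made from pooled littermates sequenced to a read target, per the labels' protocols. The submitters' processing notes name the mm10 build, MACS3, Bowtie2 2.3.4.1 and Picard 2.9.0, without roles, and trimming, read shifting and duplicate handling are not given in the sources used here. The authors deposited 1 list of peaks per group, called on pooled libraries and whose names carry the letters IDR and a level of 0.05. For each peak they deposited a score (10 times the −log10 q-value, not used further), a summit, a −log10 p-value and a fold enrichment (a ratio). Read depth per library is unknown from the lists.

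Peaks were merged with numpy 2.4.6 and pandas 2.3.3 in Python 3.11.15 wherever they shared 1 bp. Distances run from region centres to either end of the 21887 protein-coding genes of the RefSeq table (GRCm38.p6), which gives no strand. Promoter sequences cover 17492 of these genes. Shares carry Wilson 95% intervals (scipy 1.17.1). The steps were checked on simulated peaks. Named genes were the 10 with the most members, up to 3 per gene list, the strongest, weakest and widest members, members at starts and 11 landmark genes. Alternatives covered list length, common minima (the fold minimum chosen after seeing the data), overlap rules and single lists left out. Other genes, such as those with both motifs, were named after their values were seen.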

Additional observations from a re-analysis of the deposited data

Results flagged for a closer look

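For 7 kinds of lists (by digit, metapodial or phalangeal, forelimb or hind limb), the list farthest from the others in the share at a gene end or in the median distance to one was compared with Dixon's critical value. The number, width and significance of private regions were left out, since the rule for the regions used them. Of 14 checks, 2 went past the critical value; chance passes about 1 in 20, and the kinds overlap. Hand phalanges digit III stood apart among the 4 digit III lists with 5.01% of its private regions at a gene end, and metacarpal digit I among the 6 metapodial lists with 5.45%. Those shares rest on 32 and 15 regions. Metacarpal digit III did not stand apart in either measure.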

How the results depend on the processing

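No paired analysis was possible because each list pools the libraries of its group. Reducing all lists to the 36194 most significant peaks gave 892 private regions (2.59% of the list), 0.957 times the highest other list, a median width of 1299.5 bp, line position 90.7%, rank 90.7%, 3.25% at a gene end, 41.2 kb to a gene end, 8.30% with a peak of another list within 1 kb and 785 genes. A common −log10 p minimum gave 8.31%, a ratio of 2.09, 1202 bp, 3.19% at a gene end and 6.45% near another peak. A common fold minimum gave 1677 (5.04%), a ratio of 0.833, 1328 bp, line position 89.7%, rank 89.6%, 5.61% near another peak and 1351 genes. The more significant 50% of the metacarpal digit III list gave 25 (0.0977%), a ratio of 0.0151, 1223 bp, line position 93.9%, rank 93.8%, 0% at a gene end, 51.3 kb, 0% near another peak and 24 genes. A 50% cover gave 11.4% private, 1080 bp and line position 87.0%. A 1 kb margin gave 8.28% and 0% near another peak by construction. Summit windows of 500 bp gave 9.66%, a width of 500 bp by construction and 35.7 kb. All annotated genes gave 6.61% at a gene end and 15.1 kb. Leaving out each other list in turn gave 4510 to 5312 private regions, 8.998 to 10.6% of the list, widths of 1046 to 1069 bp, line positions of 86.3 to 87.7% and ranks of 86.0 to 87.8%. Apart from the settings' own construction, the cause of these moves was not tested. Of these values, none moved past its limit on autosomes alone. Read depth is unknown, so its part was not tested.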

Other observations

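Private regions of metacarpal digit III were also sorted by gene families recognised from symbols, a grouping made after the data were seen. Cadherins and protocadherins had a member in 20 of 47 genes (42.6%), adhesion G protein-coupled receptors in 10 of 23 (43.5%) and collagens in 17 of 44 (38.6%), against 18.4% of all genes with a region. Per region the shares were 9.33%, 10.8% and 7.44%, against 6.83% of all regions. Cadherins and protocadherins took 0.717% of members, against 0.938% of regions private to another list. Ribosomal protein genes had a member in 7 of 84 (8.33%), zinc finger genes in 46 of 429 (10.7%) and genes of the homeobox clusters in 1 of 29 (3.45%), with 3.83%, 5.09% and 1.64% of their regions. Olfactory and vomeronasal receptors had a member in 16 of 133 genes (12.03%, 7.54 to 18.6%), an interval that holds the 18.4%. Per region they had 18 members among 192 (9.38%). They took 0.404% of members, against 0.439% of regions private to another list.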
